A study of Hordeum vulgare with 2 samples.

Results

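Seed storage and embryo maturation proteins were examined here through 12 cysteine peptides of barley embryo extract, out of 210 peptides measured in the series. They are the peptides whose deposited protein name holds 1 of 10 words in either of 2 tables: hordein, avenin, globulin, vicilin, beta-amylase, embryo-specific, ribitol dehydrogenase, late embryogenesis, dehydrin or oleosin. Names with 6 of these words occurred, and vicilin, late embryogenesis, dehydrin and oleosin gave 0 peptides in both tables. The 12 peptides belong to 7 protein entries. All 12 were measured in the blocked run and 7 of them also in the control run. No member was removed by a filter here, but peptides lost before the authors listed their values cannot be seen.

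The extract came from embryos dissected from 48 h germinated seeds of Barke, a barley cultivar used for malting. Both runs used extract whose free thiols had been alkylated with iodoacetamide (IAM), and both had an arm with thioredoxin (Trx) and an arm without it, incubated for 1 h. In the blocked run 10 mM IAM followed, which closes the cysteines that Trx had opened, while the control run had no IAM at that step. What remained was reduced chemically and labelled with the isotope-coded affinity tag (ICAT), light in the Trx arm and heavy in the other. A heavy/light ratio above 1 in the blocked run is therefore read as less of that cysteine left to label in the Trx arm. A ratio above 1 alone does not show this, since control ratios ran from 0.824 to 1.42 with no block. One label of the control, its source name, gives no Trx treatment, against the longer description, which was followed here.

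Thioredoxin is a small protein that reduces disulfide bonds, which hold pairs of cysteines together, and cereal seeds carry it in embryo, aleurone and starchy endosperm. Hordeins are the alcohol-soluble storage proteins (prolamins) of the barley endosperm, where intra- and intermolecular disulfide bonds link them. Storage globulins of cereals lie mainly in the protein bodies of embryo and aleurone, and both kinds of protein feed the growing seedling during germination. Reduction by thioredoxin is known to make several cereal storage proteins more soluble and easier to digest.

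The members' peptides of up to 13 residues are shown here because each marks 1 cysteine whose ratio is discussed below. The letters are amino acids, read from the peptide's amino end, and C is the labelled cysteine.
B1 hordein: VFLQQQCSPVR
beta-amylase, 13 residues: EGLNVACENALPR
embryo globulin: GGHSLQQCVQR
globulin 2, 6 residues: ESLCVR
globulin 2, 9 residues: VACLDAAPR
globulin 2, 13 residues: LHQITGDQCPHLR
Ose731, 9 residues: QDLADCVER
Ose731, 13 residues: QCLIFDGPDAGAR
ribitol dehydrogenase, 13 residues: ALSGDLGYEENCR
The other 3 peptides are longer and are named by their length, 15 residues for the avenin-like protein, 18 for beta-amylase and 27 for the ribitol dehydrogenase homolog. The avenin-like peptide holds 2 cysteines, next to each other at positions 3 and 4, and the other 11 peptides hold 1 each.

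The blocked run is 1 sample and the control run is 1 sample, so no p-value was computed and no difference between the runs has a replicate check. Each ratio is the authors' average for that peptide and is given with their SD within the run (±), and an SD listed as 0 is treated as unknown. The blocked run held 199 peptides and the control run 93. The ratio limits were the control mean ± 2 SD on the log2 scale, 0.822 to 1.24, and peptides over the upper limit are called above it.

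B1 hordein (entry gi|809031), a sulfur-rich prolamin of the starchy endosperm, had the highest ratio of the members, 1.92 ± 0.14. This was rank 9 of 199 in that run and corresponds to an apparent loss of 47.8% of the light tag. The hordein peptide was not measured in the control run.

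The avenin-like a protein (gi|89143120) is named after a wheat sequence, and avenin-like proteins are cysteine-rich relatives of the prolamins. Its peptide had 1.83 ± 0.19 and an apparent loss of 45.4%, a value over 2 adjacent cysteines and not a loss per cysteine. The Mascot score of this match was 31, against a median of 60.5 over the members, and it too was not measured in the control run.

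Beta-amylase (gi|10953877), which splits maltose from starch and is stored in the endosperm, partly bound to other proteins through disulfide bonds, differed between its cysteines. The cysteine at position 5 of the 18-residue peptide had 1.65 ± 0.03 with the block and 1.075 ± 0.02 without it. The cysteine of EGLNVACENALPR had 1.11 ± 0.05 in the blocked run, within the limits, and no control value. The SD ranges of these peptides in the blocked run did not touch, and the higher was 1.48-fold the lower. The match of EGLNVACENALPR had a score of 28, and that of the longer peptide 59 with a mass error of 12.9 ppm. In the control run the longer peptide was a weaker match, with a score of 36 and a mass error of 25.7 ppm.

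Of the embryo storage proteins, embryo globulin (gi|167004) stood apart from globulin 2 (TC131411). Embryo globulin had 1.77 with the block and 1.06 without it, both with an SD listed as 0. Its blocked ratio ranked 18 of 199. It was a weak match, with a score of 22 and a mass error of -23.1 ppm, the third largest in size of the run (rank 3 of 199). In the control run its score was 25 and its mass error -14.9 ppm.

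Globulin 2 gave the most peptides of any member, and all 3 lay within the limits in the blocked run. VACLDAAPR had 0.99 ± 0.15 with the block and 0.957 ± 0.1 without it. ESLCVR had 1.04 with the block, its SD listed as 0, and 0.952 ± 0.1 without it. It was a weak match, with a score of 20, the lowest accepted, and a mass error of -16.1 ppm in the blocked run. In the control run its score was 24. LHQITGDQCPHLR had 1.06 ± 0.1 with the block and 0.845 without it, the latter with an SD listed as 0. The 3 cysteines of globulin 2 thus lay close together in the blocked run, from 0.99 to 1.06. The control value of LHQITGDQCPHLR was among the lowest of that run, at rank 91 of 93, and its match there had a mass error of -15.1 ppm.

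Ose731 (TC147106) is a putative embryo-specific protein, a name taken from rice, and its peptides lay at opposite ends of the run. QDLADCVER had 1.79 ± 0.38, at rank 16 of 199, with an SD that was the second largest of the run. QCLIFDGPDAGAR had 0.923 ± 0.11, at rank 198 of 199. Their SD ranges, 1.41 to 2.17 and 0.813 to 1.03, did not touch. Both matches had high scores, 69 and 66, and neither peptide was measured in the control run, so the ratio of these cysteines without the block is unknown.

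The glucose and ribitol dehydrogenase homolog (gi|7431022), a short-chain dehydrogenase that barley embryos make during maturation, also differed between its cysteines, and here both were measured in both runs. The cysteine at position 16 of the 27-residue peptide had 1.56 ± 0.09 with the block and 0.957 ± 0.08 without it. The cysteine of ALSGDLGYEENCR had 1.14 ± 0.15 with the block and 1.04 ± 0.1 without it. In the blocked run the longer peptide was therefore higher, with SD ranges apart. In the control run the order was the opposite, and the ranges overlapped. The mass error of the longer peptide was -12.3 ppm with the block and 12.8 ppm without it, at scores of 61 and 67. That of ALSGDLGYEENCR was -2.59 ppm with the block and -19.3 ppm without it, at scores of 87 and 71. Over all peptides of the blocked run the median size of the mass error was 4.49 ppm.

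**Figure D1:**
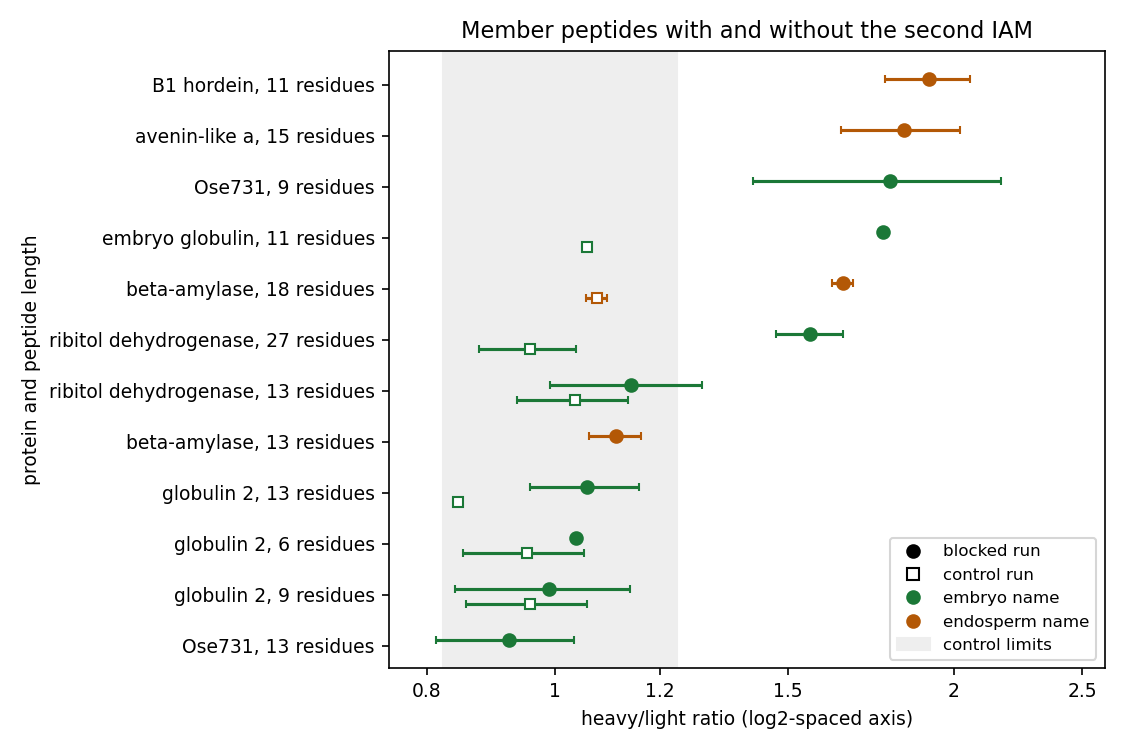
Heavy/light ratio (x axis, log2-spaced) of the 12 member peptides (y axis, protein and peptide length), with filled circles for the blocked run, open squares for the control run, bars for the authors' SD where it is above 0, colour for embryo or endosperm name, and a grey band for the control limits of 0.822 to 1.24. In the blocked run 6 peptides lie at 1.56 or higher and 6 at 1.14 or lower, while all 7 control values lie inside the band.

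Over all members, 6 of 12 peptides lay above the upper limit in the blocked run (50%, exact Clopper-Pearson 95% interval 21.1% to 78.9%). Of all 199 peptides of that run 101 did, or 50.8%, so the members' share was near the background. The interval treats peptides as independent and covers counting only. In the control run 0 of 7 members lay above, which allows a share of up to 41.0% by the same exact interval, against 2.15% of all control peptides. The limit was made from these same 93 control peptides, the 7 members included. A low share there was therefore built in and is no result about the members. The median was 1.35 over the 12 members with the block and 0.957 over the 7 measured without it. Over all peptides the medians were 1.25 (199 peptides) and 1.01 (93 peptides). These pairs of medians cover unlike sets of peptides. On peptides measured in both runs, the blocked median was 1.14 for the 7 members and 1.27 for all 82.

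The members formed a higher and a lower set with a gap between them. The lowest member above the limit was the 27-residue ribitol dehydrogenase peptide at 1.56, and the highest member within the limits was that protein's other peptide at 1.14. Of all 199 peptides, 72 (36.2%) had ratios inside that gap, where the members' own median of 1.35 also falls with no member near it. All 6 members above the limit were also above a ratio of 1.5, a level that 32.7% of all peptides passed with the block and 0% without it. The sets were divided by these same ratios after they were seen, and are a description of the 12 values. Inside the higher set 2 of 10 pairs of members with SDs above 0 had SD ranges apart, so most neighbours from 1.56 to 1.92 could not be ordered beyond their SDs. Inside the lower set 1 of 10 pairs was apart. ALSGDLGYEENCR of ribitol dehydrogenase was the only 1 of 10 members with an SD above 0 whose range, 0.992 to 1.29, crossed the limit, against 38 of 172 among all peptides (22.1%).

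**Figure D2:**
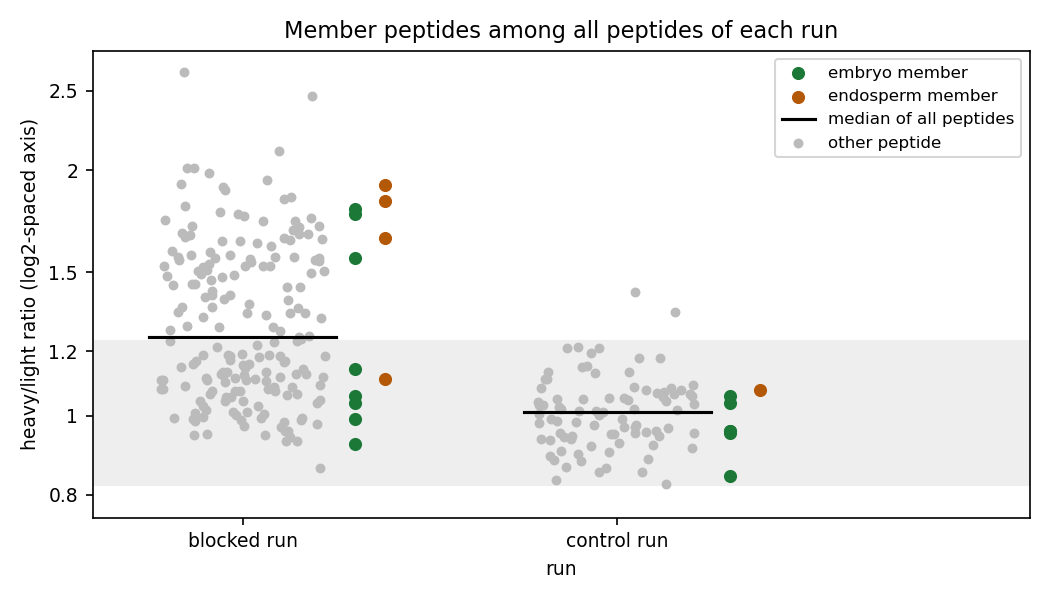
Heavy/light ratio (y axis, log2-spaced) of every peptide, by run (x axis), with grey points for other peptides, green and orange points for embryo and endosperm members, a black line for the median of all peptides and a grey band for the control limits. The members of the blocked run leave the stretch from 1.14 to 1.56 empty, where 72 of the 199 peptides lie.

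Endosperm proteins were set against embryo proteins by their names. The endosperm group (hordein, avenin-like and beta-amylase) had 4 peptides of 3 entries, with a median ratio of 1.74 in the blocked run. The embryo group (both globulins, Ose731 and ribitol dehydrogenase) had 8 peptides of 4 entries, with a median of 1.10. Above the limit were 3 of 4 endosperm peptides (75%, exact interval 19.4% to 99.4%) and 3 of 8 embryo peptides (37.5%, 8.52% to 75.5%), against 50.8% of all peptides. The groups overlapped, with endosperm ratios from 1.11 to 1.92 and embryo ratios from 0.923 to 1.79. The intervals of the shares overlap widely too. They treat peptides as independent, though these came from only 3 and 4 entries of 1 sample, so they do not measure the spread between proteins or samples. The endosperm median was 1.58-fold the embryo median on the log2 scale. Without globulin 2, whose 3 peptides are all low, it was 1.115-fold, so the contrast rests largely on that protein. In the control run the only endosperm peptide had 1.075 and the 6 embryo peptides 0.845 to 1.06.

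Peptides named for starchy endosperm proteins were present in an extract labelled as embryo. Besides the 4 member peptides, alpha-amylase inhibitors gave 1 peptide and protein Z or serpins 0. Under the names taken as embryo markers were, in the blocked run, the 8 embryo members and 2 peptides of PER1, an embryo and aleurone peroxiredoxin. The control run held 3 peptides of PER1. Alpha-amylase, which the aleurone secretes during germination, gave 0 peptides. Only peptides with a cysteine are captured by this method, and a ratio does not show from which tissue a protein came.

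Cysteines of the same protein were compared in the blocked run for entries with 2 or more peptides, of which 4 of 27 were members. Peptides were grouped by their deposited entry alone, so other proteins that a peptide may match did not enter the comparison. Ose731 had the widest span of all 27, 1.94-fold (0.96 ± 0.35 on the log2 scale, with the error propagated from the authors' SDs). Beta-amylase came sixth (rank 6) at 1.48-fold (0.57 ± 0.07 on the log2 scale), and ribitol dehydrogenase followed at rank 8 with 1.36-fold (0.45 ± 0.21). Globulin 2 was at rank 18 with 1.07-fold (0.096 ± 0.26), less than its propagated error. The extremes of an entry had SD ranges apart in 3 of these 4 entries, against 50% of the 20 entries where both SDs were above 0. Peptides on both sides of the limit were found in 3 of the 4 member entries and in 8 of all 27. All 9 peptides of these 4 member entries hold 1 cysteine, so the number of cysteines does not differ within them.

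**Figure D3:**
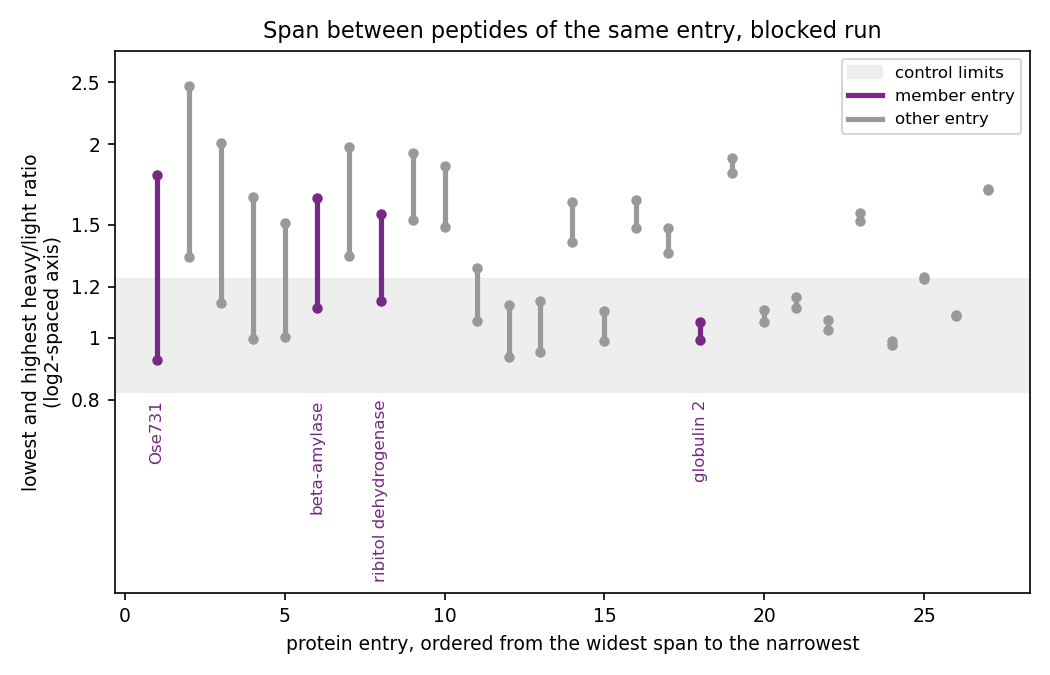
Lowest and highest heavy/light ratio in the blocked run (y axis, log2-spaced) for each of the 27 entries with 2 or more peptides, ordered on the x axis from the widest span to the narrowest, with member entries in purple, other entries in grey and the control limits as a grey band. Ose731, beta-amylase and ribitol dehydrogenase cross the upper limit, and globulin 2 stays inside the band.

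Each peptide measured in both runs was set against itself. All 7 shared members had a higher ratio with the block, as did 98.8% of the 82 shared peptides. The median difference of the members was 1.25-fold (0.32 on the log2 scale) and that of all shared peptides 1.24-fold (0.31). Embryo globulin had the largest difference, 1.67-fold, of unknown error. The 27-residue ribitol dehydrogenase peptide followed at 1.63-fold (0.70 ± 0.15 on the log2 scale) and the 18-residue beta-amylase peptide at 1.53-fold (0.62 ± 0.04). These ranked 5, 9 and 16 of the 82. The other 4 differences ran from 1.03-fold for VACLDAAPR of globulin 2 to 1.25-fold for LHQITGDQCPHLR of the same protein, the peptide with the low control value.

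SDs above 0 in both runs were given for 4 shared members, and the ranges did not touch for 2 of them, the longer peptides of ribitol dehydrogenase and beta-amylase. Among all shared peptides with such SDs 62.3% were apart. The ranges overlapped for ALSGDLGYEENCR, whose difference was 1.10-fold (0.14 ± 0.24 on the log2 scale), and for VACLDAAPR (0.05 ± 0.27). The blocked-to-control fold of the longer ribitol dehydrogenase peptide was 1.48 times that of ALSGDLGYEENCR (0.56 ± 0.28 on the log2 scale, propagated). These folds compare 1 sample with 1 sample, and shared peptides within the limits were also 1.11-fold higher in the blocked run at the median. Ribitol dehydrogenase was the 1 member with an above-limit and a within-limit cysteine that could each be set against its own control.

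**Figure D4:**
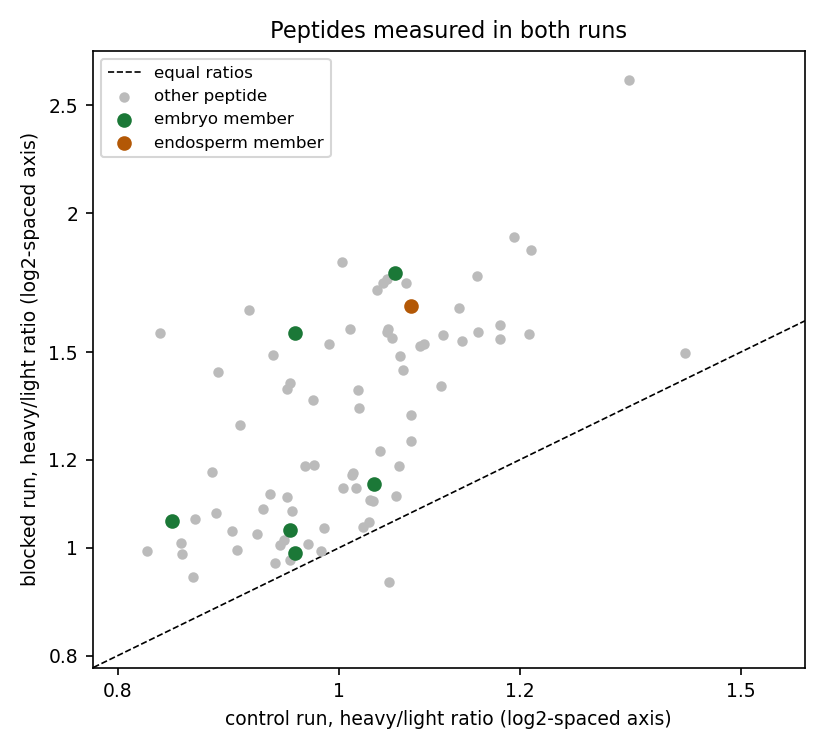
Heavy/light ratio in the control run (x axis, log2-spaced) against the blocked run (y axis, log2-spaced) for the 82 peptides measured in both, with green and orange points for embryo and endosperm members, grey points for other peptides and a dashed line for equal ratios. All 7 members lie over the line, 3 of them at blocked ratios of 1.56 to 1.77 and 4 at 0.99 to 1.14.

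The member peptides shared features of sequence that the choice by name did not use directly. Proteins chosen by name can share sequence, and the features were read from these same 12 peptides, so their shares only describe these peptides. All 12 end in arginine, as do 106 of 199 peptides of the blocked run (53.3%). Over all peptides of that run, those ending in arginine and in lysine had medians of 1.25 each, with 53 of 106 and 47 of 92 above the limit. Above a ratio of 1.5 were 41 of 106 ending in arginine (38.7%) and 23 of 92 ending in lysine (25%). A glutamine stands directly before a cysteine in 5 of 12 members (41.7%), in hordein, the avenin-like protein, embryo globulin, LHQITGDQCPHLR and QCLIFDGPDAGAR, against 8 of 199 peptides (4.02%). Their ratios ran from 0.923 to 1.92, with 3 of 5 above the limit, so cysteines with this neighbour lay on both sides. Mascot scores overlapped as well, with 22 to 69 for the members above the limit and 20 to 87 for those within it.

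Other seed proteins, taken by name as lipid transfer proteins, Bowman-Birk and amylase inhibitors, PER1, aldose reductase, an aluminum-induced protein and a cold shock protein, gave 18 peptides in the blocked run. Of these 15 lay above the limit (83.3%, exact interval 58.6% to 96.4%), with a median of 1.53, against 50.8% of all peptides and 6 of 12 members. Several of the 18 hold 2 or 3 cysteines, and all of those lay above the limit. Over the run 13 of 199 peptides held more than 1 cysteine, and 1 of 12 members did. The interval treats the 18 peptides as independent, but they came from 11 entries, and the list was chosen with earlier results known. The highest was CLDEVEECGPACK of a Bowman-Birk inhibitor, which blocks trypsin-like proteases and carries many disulfide bonds, at 2.01 ± 0.39 over 3 cysteines. The lowest was CNVNLPYK of a lipid transfer protein, one of the small seed proteins that bind lipids, at 0.994 ± 0.08. In the control run 1 of 7 peptides of this list lay above the limit. It belongs to lipid transfer protein 1 and is also 1 of the 15, with 1.42 ± 0.11 there against 1.498 ± 0.17 in the blocked run (1.06-fold, SD ranges overlapping), so its place above the limit was not particular to that run.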

How the data were processed

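The deposited values are peptide tables of 2 ICAT runs with 1 sample each, grouped by sample title. Per the file headers, each heavy/light ratio is an average made by the authors, with an SD in the same unit. Per the labels, peptides were captured on avidin and measured on a QSTAR mass spectrometer. Per the series description, ratios came from MSQuant 1.4.3a12 and the lowest accepted Mascot score was 20. The deposited score is the Mascot score of the match. The number of ratios behind each average and any centring of ratios are not given in the sources used here, so the depth behind a ratio is unknown.

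Tables were joined on peptide sequence (Python 3.11.15, pandas 2.3.3, scipy 1.17.1). Ratios were taken to log2, and limits were the control mean ± 2 SD over its 93 peptides. SD ranges (ratio ± SD) were compared where both SDs were above 0. Errors of differences were propagated from the authors' SDs on the log2 scale and are not replicate errors. Apparent loss is 100 × (1 − light/heavy) from the blocked run alone, with no correction for the control run. Members, lists and tests were chosen with earlier results of these data known. Every member is named, and of the other seed proteins the highest and lowest. None of the 7 entries matched the RefSeq gene table by accession (0 of 7), so no coordinates are given.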

Additional observations from a re-analysis of the deposited data

How the results depend on the processing

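No paired analysis was possible because each group has 1 sample. For the members above the limit, their median ratio, the median shared difference, the widest span within a protein and the embryo against endosperm contrast, 40 alternatives were run, 12 of them chosen after seeing the data. Of these 33 stayed within 1.5 times the count or within 0.14 on the log2 scale (the median SD of a member), 7 moved further and 0 changed direction. Several of the 33 could not move, because they left the deciding peptides unchanged. Each alternative for the widest span compared the same Ose731 peptides, and the shared difference with 1 cysteine per peptide used the same 7 peptides. The tally therefore overstates how far the results were tested. The count of 6 members was the same under limits of 3 SD, scaled median absolute deviation, the highest control peptide, a ratio of 1.5 and non-member control peptides. These limits, from 1.213 to 1.5, all lie in the gap between the members at 1.14 and 1.56. The count could therefore not change under them, and its stability there is no test of it. With a score of at least 40 the count was 4 of 8. The median log2 ratio of 0.42 became 0.19 with 1 cysteine per peptide, since leaving out 1 of 12 peptides moves the median from the middle of the gap to its lower edge. Centring on the 40 shared peptides within the limits gave 0.26 for it and 0.17 for the shared difference of 0.32. The embryo minus endosperm contrast of -0.66 became -0.36 with means, -0.48 with 1 value per entry, -0.31 with hordein, Ose731, beta-amylase and ribitol dehydrogenase only, and -0.16 without globulin 2. Leaving out each of the other 6 entries gave -0.77 to -0.59. Ratios with an SD listed as 0 have no known error.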

Other observations

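A peptide named for a cupin family protein, after a rice entry, was not taken by the words of the rule and was looked up after the values were seen. Cupins are the fold family to which the storage globulins belong. The peptide holds 2 cysteines and had 1.06 ± 0.09 in the blocked run, within the limits and close to the 3 globulin 2 peptides, with a score of 56. It was not measured in the control run.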
